A study of Homo sapiens with 6 samples.

Results

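The genes described here are 10 nuclear genes that encode subunits of mitochondrial ATP synthase, found by symbol among the 62443 genes of an RNA-sequencing table. All 10 were found, and all 10 exceeded the mean of 1 FPKM over the 6 libraries above which 7406 genes were tested. The libraries came from HGC-27 cells, an established human gastric cancer line. The 3 control libraries (Con) are labelled as untreated, and the methods of the study name the peptide buffer of HEPES and NaCl as negative control. The other 3 libraries came from cells treated with 10 μg/ml of GLUP, a cyclic peptide modelled on the TEAD4-binding segment of VGLL4, TEAD4 being the transcription factor at the end of the Hippo pathway. Sources differ on the duration, which is 12 h in one place and 48 h in another. The sequencing was done to find which pathways differed in treated cells, and the methods of the study describe the RNA as coming from biological replicates without saying what separated them, so p-values measure the spread between these libraries only.

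ATP synthase makes ATP from ADP and phosphate in the inner mitochondrial membrane. Protons that pass through its membrane part, Fo, turn a ring of c subunits, and the ring turns the central stalk inside the F1 head, where the catalytic sites lie on the beta subunits. A peripheral stalk holds the head still. Most subunits are encoded in the nucleus and imported, whereas a few membrane subunits are encoded by mitochondrial DNA, so that the genes of 1 enzyme are transcribed in separate compartments.

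Values are FPKM, the fragments assigned to a gene divided by its length and by the size of the library. FPKM sets genes of different length on 1 scale, but it is relative to the whole library, and in bulk RNA fewer cells and less RNA per cell cannot be told apart. Differences between GLUP and Con are given on the log2(FPKM + 1) scale, with standard errors (SE) and adjusted p-values from limma over all genes tested. The FPKM of a library summed to between 909735 and 965147, the number of reads is unknown, and mitochondrially encoded genes held 21.9% to 29.7% of the total. Con replicate 2 stood apart, with a mean Pearson correlation with the other libraries of 0.898 over the genes tested, against 0.954 to 0.964 for the others. Every library moved with base composition. Over all genes, the deviation of a library from the mean of the 6 had a Spearman correlation with GC content of -0.34, -0.60 and 0.46 in Con replicates 1, 2 and 3 and 0.43, 0.54 and 0.34 in the GLUP replicates. A value without Con replicate 2 is given where that library moved a difference by more than 1.5 times, turned it or bore on a count of genes under a p threshold. Of the labelled cell type's markers, the epithelial genes EPCAM and CDH1 were at or near 0 and keratins 8, 18 and 19 were between 0.764 and 2.51 FPKM. The mesenchymal markers did not share 1 level. VIM was between 222 and 387 FPKM and held most of that list's sum, whereas CDH2 was at most 0.0508 FPKM. FN1 was between 0.644 and 3.25 FPKM and ZEB1 between 2.88 and 19.2 FPKM. Leukocyte markers summed to at most 1.52 FPKM and endothelial markers to at most 0.00591 FPKM in any library, and CD3E and CDH5 were at 0 in all 6. The 5 epithelial markers summed to 2.97 to 3.70 FPKM in Con and 5.18 to 6.06 in GLUP, the 4 mesenchymal markers to 344 to 409.7 and 229 to 339.5, and the 6 fibroblast markers to 87.8 to 125 and 92.4 to 123.3. The part of these differences in the results was not tested.

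The largest levels among the 10 genes were those of ATP5MC1, a c ring gene, and ATP5PO, which encodes the oligomycin sensitivity conferring protein that joins the peripheral stalk to the head. ATP5MC1 had a mean of 1449 FPKM ± 309 (SD, n = 3) in Con, and ATP5PO had 1407 FPKM ± 299. Their ranges overlapped with each other and lay above those of the next gene, ATP5F1B, in both groups. From ATP5F1B down to ATP5MC3, 7 genes followed with Con means between 156 and 362 FPKM, in an order where each neighbour overlapped with the next. ATP5F1D, which encodes the delta subunit of the central stalk, was the lowest, at 12.3 FPKM ± 4.71, with a range below that of every other gene. In GLUP the same 2 genes were highest and ATP5F1D was again lowest, at 12.5 FPKM ± 1.27. The level percentile of ATP5F1D was 73.3 among all genes tested, and the other 9 genes were between the 94.1 and 98.5 percentiles. FPKM depends on the transcript length that the authors' gene model used, and for several genes the annotated coding transcripts differ widely. Those of ATP5F1E, for example, run from 697 to 3610 bases, and those of ATP5F1A from 553 to 5761 bases.

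**Figure D1:**
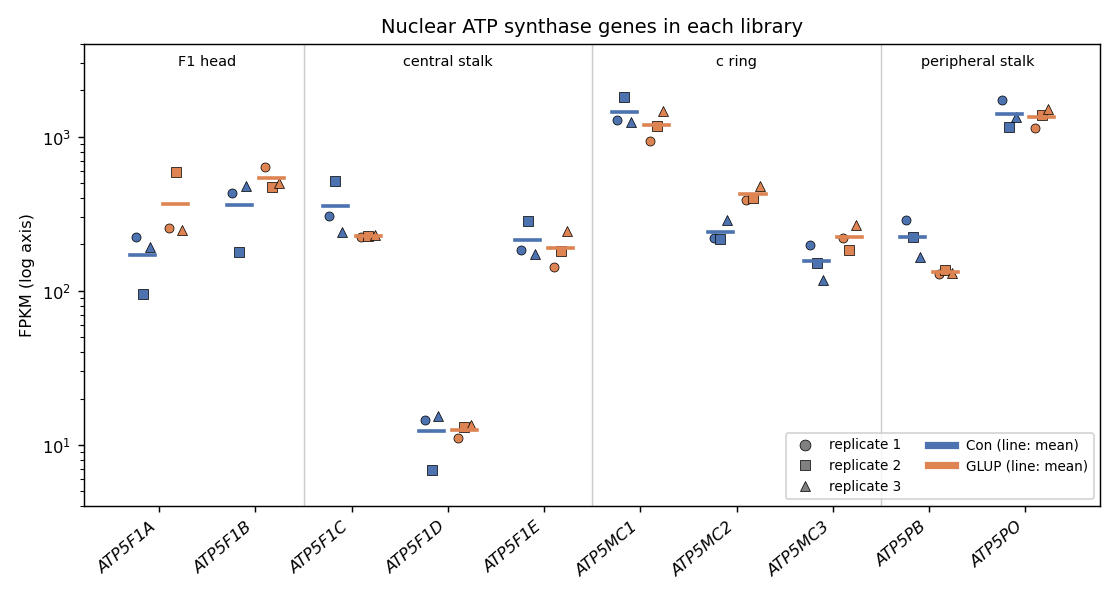
FPKM of the 10 nuclear ATP synthase genes on a log axis, with 1 point per library, Con in blue and GLUP in orange, marker shapes for replicates 1 to 3 and a line at each group mean. ATP5MC1 and ATP5PO lie between 932 and 1805 FPKM and ATP5F1D between 6.87 and 15.4, while the groups of ATP5F1A, ATP5F1C, ATP5MC2 and ATP5PB do not overlap.

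Together the 10 genes did not move in 1 direction. Their mean log2(FPKM + 1) was higher in GLUP for 5 and lower for 5. The median difference was 0.02, beside -0.23 over all genes tested. Without Con replicate 2 it turned to -0.04, beside -0.19 over all genes. None of the 10 passed an adjusted p of 0.05 by limma, the same as for all genes, of which 0 did (0.0%). At an unadjusted p under 0.05, 2 were higher in GLUP (ATP5F1A and ATP5MC2) and 1 was lower (ATP5PB), beside 4.46% of all genes higher and 17.2% lower (21.7% in all). Without Con replicate 2 this count was 2, as ATP5F1A had an unadjusted p of 0.0705 by limma, beside 1390 of 7406 genes. With all libraries, the groups did not overlap for ATP5F1A, ATP5MC2, ATP5PB and ATP5F1C. These were 2 genes higher and 2 lower in GLUP, beside 7.55% of all genes higher and 22.7% lower. The 4 of 10 is near the 30.3% of all genes whose groups did not overlap in either direction. For each of the 4, the exact permutation test of the log2(FPKM + 1) values gave a two-sided p of 0.1, which is the smallest that 3 libraries against 3 allow. The summed FPKM of the 10 genes was 4591 ± 318 in Con and 4637 ± 515 in GLUP (SD, n = 3), with overlapping groups.

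The F1 head is built from ATP5F1A and ATP5F1B, and both had a higher mean in GLUP. ATP5F1A encodes the alpha subunit, and lies on chromosome 18 from 43660214 to 43684300 (minus strand, GRCh37, ENSG00000152234). It measured 223, 95.4 and 193 FPKM in Con and 257, 593 and 248.8 FPKM in GLUP, in the order of the replicate numbers here and throughout. All GLUP libraries were above all Con libraries, and GLUP replicate 2 stood apart at 2.31 times the highest of the other 5 libraries. In that library only 7 of the 7406 genes tested were more than 2 times above all 5 others. The difference was 1.07 (SE 0.44, adjusted p = 0.207 by limma), or 1.30 relative to the median of all genes. Leaving out GLUP replicate 2 gave 0.66, and leaving out Con replicate 2 gave 0.69.

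ATP5F1B, the gene of the catalytic beta subunit, lies on chromosome 12 from 57031959 to 57039768 (minus strand, ENSG00000110955). It measured 429.7, 178 and 478 FPKM in Con and 638, 469 and 504 FPKM in GLUP. Con replicate 2 was far below the other 5 libraries, and the groups overlapped through Con replicate 3. The difference of 0.68 (SE 0.39, adjusted p = 0.299 by limma) became 0.23 without Con replicate 2. Alpha and beta are present in equal numbers in the enzyme, and the ratio of ATP5F1A to ATP5F1B was between 0.403 and 0.537 in 5 libraries and 1.26 in GLUP replicate 2. Thus the high library of ATP5F1A was not matched by ATP5F1B.

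The promoter of ATP5F1A was the only one of the 7 in the RefSeq promoter table for these genes that held CATTCC, the M-CAT letters that TEAD factors bind, or their reverse complement GGAATG. The letters occur in 14.04% of all 34796 promoters of this table (250 bases before to 50 after the start), and the match is a description of letters and not of a bound site. ATP5F1B, ATP5F1D and ATP5MC3 were not in the table. In the 60 bases shown for ATP5F1A, at chr18:46104418-46104477 (GRCh38.p14, minus strand), the capitals mark CATTCC, whose first base lies 231 bases before the start site. The windows of ATP5F1C, at chr10:7788129-7788188 (plus strand), and of ATP5MC2, at chr12:53676090-53676149 (minus strand), are shown because these were the 2 genes with GCGCATGC, a core of the sites of NRF1, a regulator of nuclear mitochondrial genes. Capitals mark it in either orientation, and in ATP5F1C the motif and its reverse complement GCATGCGC overlap.
ATP5F1A: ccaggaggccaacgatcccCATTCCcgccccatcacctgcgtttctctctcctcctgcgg
ATP5F1C: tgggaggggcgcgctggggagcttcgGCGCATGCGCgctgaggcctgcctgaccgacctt
ATP5MC2: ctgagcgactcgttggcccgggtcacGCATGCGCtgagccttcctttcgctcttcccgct
GCGCATGC was thus in 2 of 7 promoters, against 2.995% of all. One of these genes had lower and the other higher FPKM in GLUP. The YY1 letters AAGATGGC were in 2 of 7 (ATP5PB and ATP5PO, against 2.888% of all), CCAAT in 2 of 7 (ATP5F1E and ATP5MC1, 34.6% of all) and the SP1 letters GGGCGG in 6 of 7 (44.89% of all), each searched on both strands. The ETS letters CCGGAAGT were in 0 of 7, against 4.127% of all promoters. In ATP5F1A, the last base of CATTCC is the first of CCGCCC, the reverse complement of GGGCGG.

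The central stalk genes did not share a direction. ATP5F1C encodes the gamma subunit, the rotating shaft, and lies on chromosome 10 from 7830110 to 7849778 (plus strand, GRCh37, ENSG00000165629). It measured 305, 514 and 239.9 FPKM in Con and 222, 225 and 232 FPKM in GLUP. The GLUP libraries were nearly equal and all below the Con libraries, of which Con replicate 2 was highest and Con replicate 3 only just above GLUP. The difference was -0.56 (SE 0.33, adjusted p = 0.305 by limma), against -0.26 without Con replicate 2 and -0.11 after removal of a trend with GC content and length. Both changes made together gave 0.052.

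ATP5F1D, on chromosome 19 from 1241745 to 1244824 (plus strand, ENSG00000099624), measured 14.5, 6.87 and 15.4 FPKM in Con and 11.1, 13.0 and 13.5 FPKM in GLUP. The groups overlapped, with Con replicate 2 the lowest library and the other 2 Con libraries the highest. The difference was 0.10 (SE 0.34, adjusted p = 0.871 by limma) and turned to -0.24 without Con replicate 2, and to -0.35 after trend removal. At 69.5% GC its transcript was the richest in GC of the 10, and that of ATP5F1E, at 38.4%, the poorest.

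ATP5F1E encodes the small epsilon subunit at the foot of the stalk and lies on chromosome 20 from 57600530 to 57607400 (minus strand, ENSG00000124172). It measured 185, 286 and 174 FPKM in Con and 143, 181 and 244 FPKM in GLUP. The groups overlapped, with Con replicate 2 highest and GLUP replicate 1 lowest. The difference of -0.18 (SE 0.33, adjusted p = 0.735 by limma) was 0.041 without Con replicate 2. Con replicate 2 thus held the highest value of ATP5F1C and ATP5F1E, and the lowest of ATP5F1A, ATP5F1B and ATP5F1D. The ratio of ATP5F1C to ATP5F1B, chosen after the values were seen, reached 2.89 in Con replicate 2, whereas the other 5 libraries had 0.348 to 0.71.

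The 3 c ring genes encode 1 mature protein. The last 77 residues of their coding sequences are the same in all 3, whereas the sequences before them, which hold the signals for import into mitochondria, differ. Over the 231 bases that encode these residues, ATP5MC1 and ATP5MC2 share 88.3% of bases, and ATP5MC3 shares 80.1% with each. The first 90 of the 3 sequences are shown from the GENCODE transcripts, with capitals at the 23 positions where the genes do not all have the same base.
ATP5MC1: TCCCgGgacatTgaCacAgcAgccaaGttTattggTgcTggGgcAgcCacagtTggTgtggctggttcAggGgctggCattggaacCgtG
ATP5MC2: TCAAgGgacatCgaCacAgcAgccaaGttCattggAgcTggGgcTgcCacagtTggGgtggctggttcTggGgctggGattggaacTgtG
ATP5MC3: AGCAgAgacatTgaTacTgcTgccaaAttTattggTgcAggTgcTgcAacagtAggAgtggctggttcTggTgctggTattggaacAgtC
The longest run of identical bases between any 2 of the 3 transcripts was 17 bases, so the 3 genes can be told apart over stretches longer than that.

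ATP5MC1, on chromosome 17 from 46970127 to 46973233 (plus strand, ENSG00000159199), measured 1292, 1805 and 1251 FPKM in Con and 932, 1180 and 1461 FPKM in GLUP. The groups overlapped, with Con replicate 2 highest and GLUP replicate 1 lowest. The difference was -0.29 (SE 0.28, adjusted p = 0.517 by limma), which is -0.06 relative to the median of all genes, and -0.12 without Con replicate 2.

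ATP5MC2, on chromosome 12 from 54026510 to 54071192 (minus strand, ENSG00000135390), measured 219, 217 and 287 FPKM in Con and 390.2, 399.9 and 478 FPKM in GLUP. All GLUP libraries were above all Con libraries, with no library far from its group. The mean was 241 ± 39.97 FPKM in Con and 423 ± 48.1 FPKM in GLUP (SD, n = 3), a ratio of 1.75. The difference was 0.81 (SE 0.27, 95% interval 0.20 to 1.42, adjusted p = 0.198 by limma) and had the smallest p of the 10 genes. Leaving out Con replicate 2 gave 0.74, removal of the GC and length trend gave 0.70, and all 17 other settings lay between 0.69 and 1.11. Without Con replicate 3 its adjusted p was 0.0451 by limma, in a fit that called 18.5% of all genes (2.2% higher and 16.3% lower). Without Con replicate 2, 0.0405% of all genes and none of the 10 were called.

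ATP5MC3, on chromosome 2 from 176040986 to 176046438 (minus strand, ENSG00000154518), measured 199, 152 and 117 FPKM in Con and 219.9, 184 and 269 FPKM in GLUP. The groups overlapped only through Con replicate 1, which was above GLUP replicate 2. The difference was 0.53 (SE 0.31, adjusted p = 0.308 by limma), the same without Con replicate 2, and 1.12 once the GC and length trend was removed (adjusted p = 0.191 by limma).

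The summed FPKM of the c ring genes was 1847 ± 285 in Con and 1838 ± 339 in GLUP, with overlapping groups. Within the sum, ATP5MC1 held 75.5%, 83.0% and 75.5% in Con and 60.4%, 66.9% and 66.2% in GLUP. Its share was thus lower in every GLUP library than in every Con library, by 13.5 percentage points on average (78.0% ± 4.32 against 64.5% ± 3.55, SD, n = 3, exact permutation p = 0.1, the smallest possible). ATP5MC2 held 12.8%, 9.98% and 17.4% in Con and 25.3%, 22.7% and 21.6% in GLUP, also without overlap. The share of ATP5MC3 was 8.57% ± 2.65 in Con and 12.3% ± 1.93 in GLUP, with overlapping groups (exact permutation p = 0.2). A share within 1 library does not depend on how that library is scaled. Scaling by the trimmed mean of log ratios or to the nuclear total thus left the difference in the ATP5MC1 share at -13.5 points by construction. Over the 11 other settings in which it was computed, these included, the difference was between -17.1 and -11.0 points. The shares were examined after the values of the 3 genes had been seen.

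**Figure D2:**
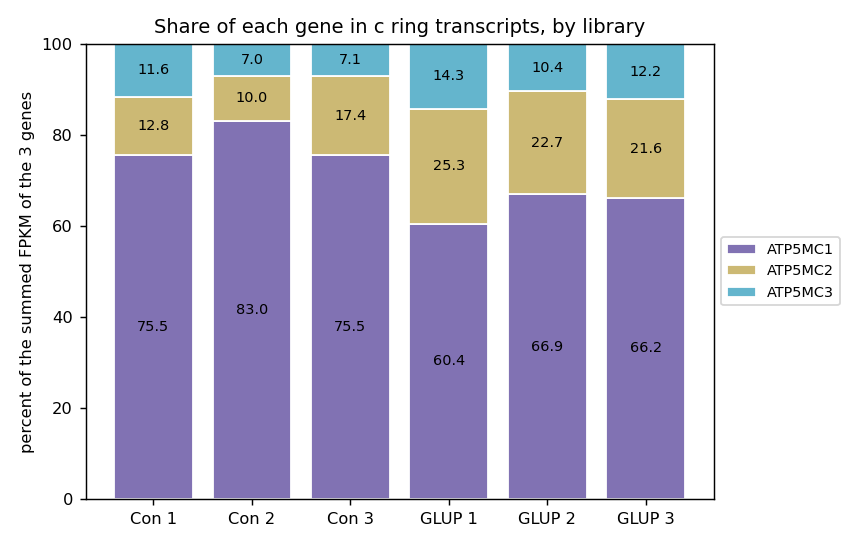
Stacked bars of the percent of the summed FPKM of the 3 c ring genes held by ATP5MC1, ATP5MC2 and ATP5MC3, with 1 bar per library. ATP5MC1 holds 75.5% to 83.0% in the Con libraries and 60.4% to 66.9% in the GLUP libraries.

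The peripheral stalk genes differed from each other. ATP5PB encodes subunit b, the long strut of the stalk, and lies on chromosome 1 from 111991486 to 112005395 (plus strand, ENSG00000116459). It measured 287, 222 and 166 FPKM in Con and 129, 136 and 131 FPKM in GLUP. The GLUP libraries lay within a narrow range below all Con libraries, which were spread more widely. The mean was 225 ± 60.6 FPKM in Con and 132 ± 3.69 FPKM in GLUP (SD, n = 3). The difference was -0.73 (SE 0.30, 95% interval -1.40 to -0.06, adjusted p = 0.209 by limma) and -0.72 without Con replicate 2. Trend removal brought it to -0.17, and leaving out Con replicate 3 to -0.93 with an adjusted p of 0.0495 by limma. The fit without Con replicate 3 called 16.3% of all genes lower. At 39.4%, the GC content of the ATP5PB transcript was among the 3 lowest of the 10 genes.

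ATP5PO, on chromosome 21 from 35275757 to 35288118 (minus strand, ENSG00000241837), measured 1735, 1150.4 and 1334 FPKM in Con and 1131, 1374 and 1504 FPKM in GLUP. The groups overlapped over most of their range. The difference was -0.06 (SE 0.26, 95% interval -0.65 to 0.52, adjusted p = 0.893 by limma), and -0.20 without Con replicate 2. The ratio of ATP5PB to ATP5PO, chosen after the values were seen, was 0.165, 0.193 and 0.124 in Con and 0.114, 0.0993 and 0.0871 in GLUP. The Con libraries were all above the GLUP libraries in this ratio (exact permutation p = 0.1, the smallest possible).

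**Figure D3:**
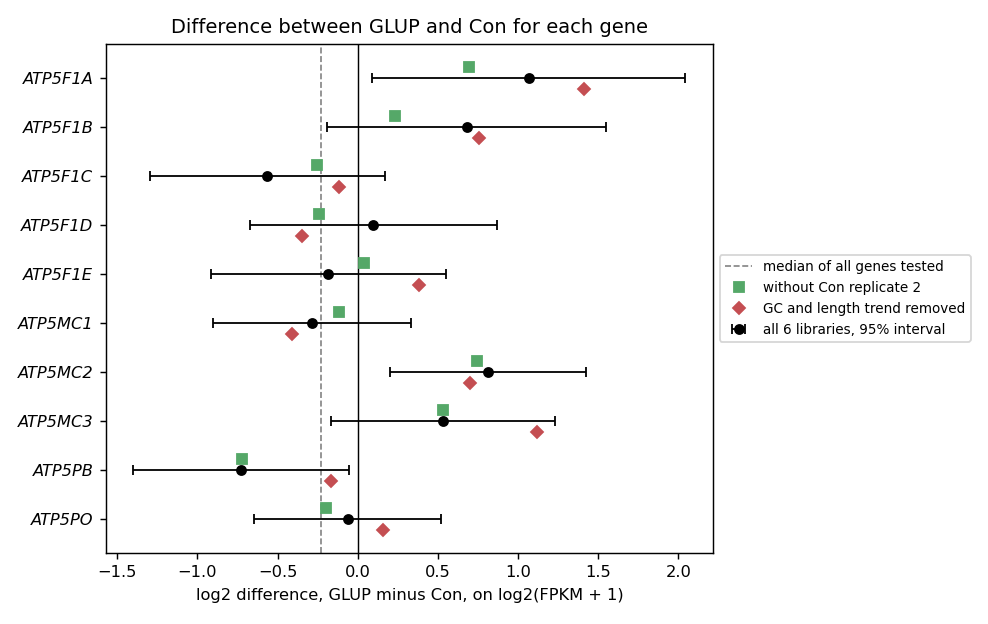
Difference between GLUP and Con for each of the 10 genes on the log2(FPKM + 1) scale, with the limma 95% interval over all 6 libraries in black, the value without Con replicate 2 in green and the value after trend removal in red. The intervals of ATP5F1A, ATP5MC2 and ATP5PB leave out 0, ATP5MC2 stays between 0.70 and 0.81 in all 3 fits, and ATP5PB moves from -0.73 to -0.17 with the trend removed.

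Con replicate 2 and base composition bore on several of these values. Across all genes tested, the difference between GLUP and Con had a Spearman correlation of 0.56 with the GC content of the transcript, and over the 10 genes it was 0.26 (0.53 with the GC content of the coding part), given as descriptions. Removing the trend moved ATP5MC3 by more than 1.5 times upward and ATP5F1C and ATP5PB toward 0. Directions of ATP5F1D, ATP5F1E and ATP5PO changed under at least 1 scaling, trend or left-out library, and that of ATP5MC1 changed to 0.015 under scaling by the trimmed mean of log ratios. The directions of ATP5F1A, ATP5F1B, ATP5MC2, ATP5MC3 and ATP5PB were the same under all 17 settings.

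The 10 genes did not vary together from library to library. Of the 45 pairs, 24 had a Pearson correlation above 0 over the 6 libraries, the median was 0.02, and 14 pairs changed sign without Con replicate 2. ATP5F1E and ATP5MC1 were the most alike, with a correlation of 0.97, and 0.93 without Con replicate 2. ATP5F1B and ATP5F1C were the most opposed, at -0.96, and -0.66 without it, and ATP5MC2 and ATP5PB had -0.93 with and without it. The mean of the standardized 10 genes was highest in GLUP replicate 3 and Con replicate 1 and lowest in GLUP replicate 1, and the correlation with it was 0.87 for ATP5PO and between -0.21 and 0.60 for the others. Without Con replicate 2 it was 0.85 for ATP5PO, 0.87 for ATP5F1E, 0.82 for ATP5MC1 and -0.61 for ATP5F1B. Outside the list, the 5 genes most correlated with this mean were FKBPL (0.98), MGST3, a microsomal glutathione transferase (0.97), MTSS2 (0.97), KBTBD2, an adaptor of a ubiquitin ligase (0.95), and STAP2, a signalling adaptor (0.95). These correlations rest on 6 libraries that share the same scaling and are descriptions. Each of the 10 genes is part of the mean it was compared with, which raises its own correlation. The 5 outside genes were picked as the highest among all genes tested.

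The list of other nuclear subunits held 8 genes, and 7 of them had a lower mean in GLUP, beside 65.5% of all genes tested. Their median difference was -0.41, beside -0.23 over all genes, and it was -0.19 without Con replicate 2 (-0.19 over all genes) and -0.06 after trend removal. ATP5PF, the F6 subunit of the peripheral stalk, measured 1944, 4099 and 1243 FPKM in Con and 715, 952 and 1043 FPKM in GLUP. ATP5MJ, a small membrane subunit, measured 3110, 4023 and 2460 FPKM in Con and 1690, 1944 and 2154 FPKM in GLUP. In both, all GLUP libraries were below all Con libraries, and Con replicate 2 was highest. Their differences were -1.27 and -0.71 (adjusted p = 0.194 and 0.198 by limma), and -0.80 and -0.53 without Con replicate 2. These were the 2 of the 8 that were lower at an unadjusted p under 0.05, beside 17.2% of all genes, and none was higher. Among the rest, the differences were -0.74 for ATP5ME, -0.47 for DMAC2L, -0.36 for ATP5MK, -0.23 for ATP5MG, -0.12 for ATP5PD and 0.24 for ATP5MF, all with overlapping groups. Without Con replicate 2 they were -0.24 for ATP5ME, -0.68 for DMAC2L, -0.14 for ATP5MK, -0.11 for ATP5MG and 0.34 for ATP5MF, and ATP5PD turned to 0.10.

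The mitochondrially encoded subunits had higher means in GLUP. MT-ATP6, the subunit a that forms the proton path beside the c ring, measured 7777, 7165 and 9611 FPKM in Con and 12765, 12620 and 8536 FPKM in GLUP. MT-ATP8 measured 5531, 2265 and 4638 FPKM in Con and 8729, 5472 and 4564 FPKM in GLUP. GLUP replicate 3, the library with the lowest share of mitochondrially encoded RNA, lay within the Con range in both genes, as did GLUP replicate 2 for MT-ATP8. The differences were 0.45 and 0.64 (adjusted p = 0.261 and 0.298 by limma), and 0.36 and 0.25 without Con replicate 2. The coding regions of these 2 genes overlap, so that fragments may count for either.

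Of the 6 assembly and inhibitor genes, ATPAF1, the chaperone of the beta subunit, and TMEM242, an assembly factor, were lower at an unadjusted p under 0.05, beside 17.2% of all genes. ATPAF1 measured 2.39, 2.07 and 2.29 FPKM in Con and 1.27, 1.11 and 0.748 FPKM in GLUP, with no overlap and a difference of -0.68 (adjusted p = 0.194 by limma). TMEM242 had a difference of -0.86, also with no overlap, and -0.48 without Con replicate 2. ATPAF2, the chaperone of the alpha subunit, had 0.51, and -0.03 without Con replicate 2. TMEM70, which aids c ring assembly, had -0.29, FMC1 had 0.08 and ATP5IF1, the inhibitor of the enzyme's reverse reaction, had -0.06, all with overlapping groups. Without Con replicate 2 these were -0.61, 0.58 and 0.083. TMEM70 then had an unadjusted p of 0.0286 and TMEM242 of 0.0825 by limma. The ADP/ATP carriers SLC25A5, SLC25A6 and SLC25A4 had differences of 0.93, 0.64 and 0.49, and the phosphate carrier SLC25A3 had -0.60, none of them at an unadjusted p under 0.05. Without Con replicate 2 the carriers of ADP and ATP had 0.36, 0.21 and 0.14. SLC25A3 then had -0.73, at an unadjusted p of 0.0447 by limma, in a fit where 1390 of 7406 genes were under 0.05.

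Among regulators of nuclear mitochondrial genes, 4 of 9 passed the minimum and none had an unadjusted p under 0.05. GABPB1, a subunit of NRF2/GABP, measured 18.9, 10.6 and 13.6 FPKM in Con and 9.76, 7.95 and 8.11 FPKM in GLUP, with no overlap and a difference of -0.65 (adjusted p = 0.242 by limma). After trend removal it was -0.092. Without Con replicate 2 the difference of GABPB1 was -0.83, at an unadjusted p of 0.00706 by limma, so that the count of none changed. In that fit 1390 of 7406 genes had an unadjusted p under 0.05. NRF1 itself was below the minimum, between 0.396 and 0.495 FPKM in Con and 0.583 and 0.76 FPKM in GLUP, without overlap and higher in GLUP.

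Of the 61 nuclear subunits of complexes I to IV, 4 were higher and 7 lower at an unadjusted p under 0.05, beside 4.46% and 17.2% of all genes, with a median difference of -0.15. Their lowest and highest values were -1.67 for NDUFA5, a complex I subunit, and 1.31 for UQCRC1, a core subunit of complex III, and both shrank without Con replicate 2, to -0.96 and 0.24. The vacuolar ATPase, a rotary proton pump of lysosomes built on the same plan, had 0 of 14 tested genes higher and 3 lower by the same count, and a median of -0.25. Its values ran from -0.99 for ATP6V1D to 1.78 for ATP6V0B, and without Con replicate 2 these were -0.64 and 0.56. No difference between these lists and the 10 genes was tested.

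**Figure D4:**
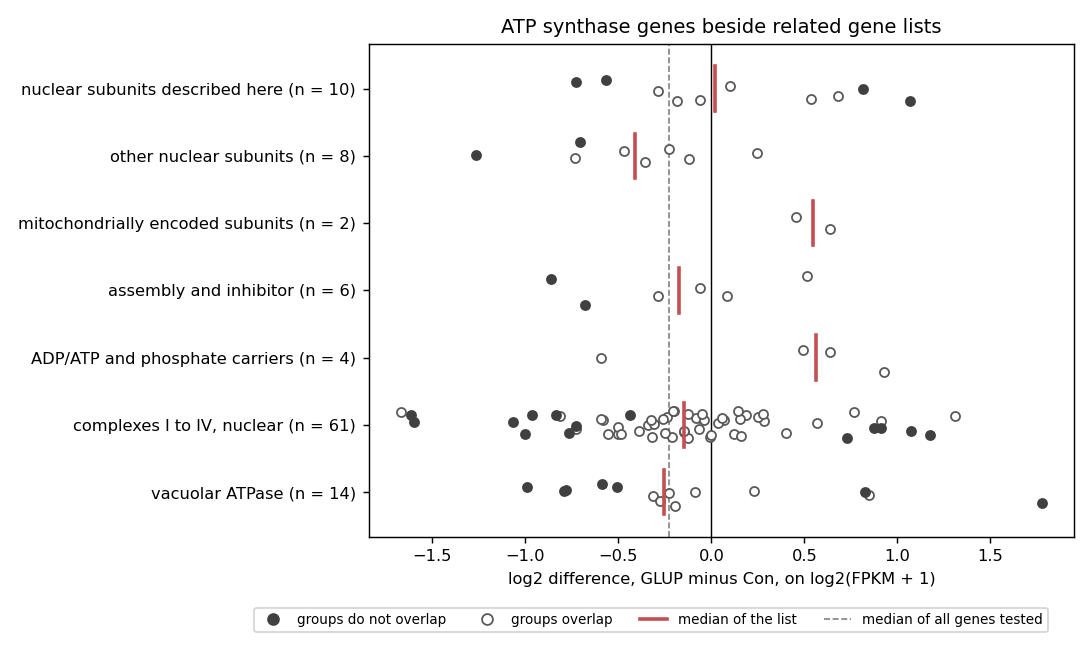
Difference between GLUP and Con on the log2(FPKM + 1) scale for each gene tested of the 10 nuclear subunits and of 6 related lists, with filled points where the groups do not overlap, a red line at the median of the list and a dashed line at the median of all genes tested. The 10 genes run from -0.73 to 1.07 with a median of 0.02, and the 8 other nuclear subunits from -1.27 to 0.24 with a median of -0.41.

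Overlapping genes and copies limit some of these values. Counting by strand is not stated, and an exon of ATP5PO is shared with a longer gene on the same strand (ENSG00000249209, 6.28 to 19.8 FPKM), and crossed by LINC00649 on the opposite strand (1.88 to 4.56 FPKM). An exon of ATP5MC1 is crossed by SUMO2P17 on the opposite strand (2.56 to 3.73 FPKM), and one of ATP5F1E by TUBB1, which was at 0 in all libraries. These levels were a small part of those of the 3 genes. Of 57 annotated pseudogenes of ATP synthase genes, 25 were at 0 in all libraries. The highest, ATP5MFP2, reached 35.3 FPKM, and the highest copy of any of the 10 genes, ATP5MC2P4, reached 1.83 FPKM. The longest run of bases that a copy shares with its parent was 101 bases, in ATP5F1CP1, and how fragments that match both were assigned is not stated, so that small parts of the parents' values are uncertain.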

How the data were processed

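RNA of HGC-27 cells in 6 libraries (3 Con, 3 GLUP, grouped by sample titles) was analysed. The authors deposited 1 table of FPKM per gene, which carries no counts, so count models were not used. Low values gave relative depths from 0.834 in Con replicate 2 to 1 in GLUP replicate 2, but only 2.97% to 4.42% of the values examined lay at whole steps and reads were not recovered. The submitters' processing notes name HISAT2, Cufflinks, RSEM and GRCh38.p10 without roles or versions, whereas the identifiers are of the form used by GENCODE annotations lifted to GRCh37. Gene coordinates, lengths and GC content here are from GENCODE 44 lifted to GRCh37, and promoters are from RefSeq GRCh38.p14.

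Of 62492 rows, 49 pseudoautosomal copies were merged. Genes averaging 1 FPKM or more were tested on log2(FPKM + 1) with limma 3.58.1 (R 4.3.3), as a two-sided test using eBayes with trend and no covariates, with Benjamini-Hochberg adjustment over all 7406 genes. A fold change on this scale understates that of low genes. On simulated data for these genes, with 200 changed, the fit called 101 with 4 false calls, and it recovered 79% of changes of 2 and 18% of changes of 1 on the log2 scale. The simulated noise was independent between genes and libraries, with no GC trend and no library that stood apart. These rates therefore need not hold for the real libraries. The GC and length trend was a loess fit (span 0.5) per library, for the 98.3% of genes with both values. Length and GC content were those of 1 annotated transcript per gene, the one tagged as canonical. Values after trend removal depend on that choice, which was not varied.

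The 10 genes and all lists were chosen with earlier results of these data known. Named genes were all 10, all genes of 4 related lists (other subunits, mitochondrially encoded subunits, assembly and inhibitor, carriers), the extremes of complexes I to IV and of the vacuolar ATPase, and the 5 genes most correlated with the mean profile. GABPB1, NRF1, ATP6V1G1, ATP6V1C1 and the overlapping genes were named after their values were seen. No 2 libraries were copies of each other. The other settings are listed with their effect in the closing section.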

Additional observations from a re-analysis of the deposited data

How the results depend on the processing

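The fit was repeated under 17 other settings: a pseudocount of 0.1, no filter or a minimum of 5 FPKM, scaling by the trimmed mean of log ratios, by quantiles or to the nuclear total, eBayes without trend, the replicate number as a block, the GC and length trend removed (with and without the block), leaving out each library, and, chosen after seeing the data, the trend removed without Con replicate 2. The count of all genes at an adjusted p under 0.05 by limma was 1 with a minimum of 5 FPKM, without the eBayes trend, with the replicate block and with the block and trend removal, 2 with the trend removed with or without Con replicate 2, and 0 to 1367 when 1 library was left out (1367 without Con replicate 3, 3 without Con replicate 2). Among the 10 genes it was 0 to 2 when 1 library was left out (2 without Con replicate 3) and 0 otherwise. The count of the 10 genes at an unadjusted p under 0.05 by limma was 3 with all libraries, 1 with the replicate block (ATP5MC2), 4 with the block and trend removal, 2 with no filter, and 0 to 3 when 1 library was left out (0 without GLUP replicate 2, 1 without GLUP replicate 3). The same count over all genes was 1606 of 7406 with all libraries and 1513 of 7406 with the block. It was 1240 of 7279 with the block and trend removal and 2541 of 31444 with no filter. Leaving out 1 library gave 785 to 2986 of 7406 (785 without GLUP replicate 2, 936 without GLUP replicate 3). Same-numbered deviations from the group means correlated at 0.13, -0.010 and -0.17. Whether libraries of the same number shared a culture or batch is not stated, and these correlations cannot settle it. The trimmed mean of log ratios brought the median difference of the 10 genes to 0.31 and the median of all genes from -0.23 to -0.0081. The former was 0.27 after trend removal, with or without the block, and 0.23 after trend removal without Con replicate 2. Scaling by the trimmed mean reversed ATP5F1E (0.12), ATP5MC1 (0.015) and ATP5PO (0.24). Trend removal, with or without the block, reversed ATP5F1D (-0.35), ATP5F1E (0.38) and ATP5PO (0.16), and without Con replicate 2 ATP5F1C (0.052), ATP5F1D (-0.30) and ATP5F1E (0.43). Leaving out 1 library gave -0.20 to 0.10 for ATP5PO (reversed without Con replicate 1 and GLUP replicate 1), -0.24 to 0.29 for ATP5F1D (reversed without Con replicate 2) and -0.38 to 0.041 for ATP5F1E (reversed without Con replicate 2 and GLUP replicate 1). The cause was not tested. The number of the 10 genes with groups that did not overlap, recomputed after seeing the data, was between 3 and 6 under all settings. No share of all genes is given for these settings, and groups separate more easily when 1 library is left out. These counts thus cannot be set beside the 30.3% of all genes found with all libraries. The share of genes lower in GLUP was 65.5%, and 50.6% with the trimmed mean of log ratios, 53.0% with quantiles and 49.3% with the trend removed. Read depth is unknown, so counting error could not be given.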
